A study of Mus musculus with 35 samples.

Results

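The comparison described here set MOSE cells at passage 25 (p25) against the same culture at passage 23 (p23), and its members were the 4 arrays titled for each of these passages, 8 of the 35 arrays of the series, read over all 15254 clones printed on the array. MOSE cells are mouse ovarian surface epithelial cells, isolated here from adult virgin C57BL/6 females and subcultured in DMEM with FBS. They are a primary culture that was carried on by serial passage and not a cloned line, so a passage samples whatever mixture of cells was then growing. The series holds 9 passages, each with 1 RNA preparation labeled against a common reference, total RNA of a whole newborn C57BL/6 male mouse. At p25, arrays d1 and d2 carried MOSE cDNA in Cy5 and arrays r1 and r2 in Cy3, and at p23 the dyes were laid out in the same way. The 4 arrays of a passage are repeated hybridizations of 1 RNA, hence every test below measured the spread between hybridizations and none between cultures. The labels separate the groups by passage number alone, and whatever else differed between the days of culture cannot be told apart from it. The array names give p25 array r2 another prefix than the remaining 7 arrays, and what the prefix stands for is not stated. Without r2 the main test described below still called 1 clone, a count too low to show how r2 bears on the other transcripts.

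The ovarian surface epithelium is a modified mesothelium continuous with the peritoneal lining. It carries simple-epithelial keratins (Krt7, Krt8, Krt18 and Krt19) beside mesenchymal filaments, and it is repaired after every ovulation. Mouse cells of this layer transform spontaneously when they are passaged for long, which is the course the study set out to follow. The question the pair can answer is what the transcript levels did over a short step between neighboring late passages.

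Values are log2(MOSE/reference) ratios, positive where a transcript was more abundant in MOSE cells than in the newborn. They were normalized by print-tip loess and scaled so that every array has the same spread, with reverse arrays turned. A difference is always p25 minus p23 on the log2 scale, so that a value of 1 is a doubling. Most of the array gave signal in both groups. Median MOSE signal, before background was subtracted, lay between 1094 and 2446 at p25, and between 872 and 2697 at p23. The median MOSE background was 379 to 990 at p25 and 159 to 627 at p23. Between 99.3% and 99.6% of clones were above background, by any amount, in both channels on each array. Between 1.2% and 2.5% of spots on each array were marked as not found.

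Very few clones passed the test. With limma on the 8 arrays (adjusted p under 0.01, Benjamini-Hochberg over all clones) 1 clone was called higher and 0 lower, which is 0.00656% of those tested. With the threshold at 0.05 there were 3 clones, all higher (0.0197%), and 1148 clones (7.53%) had an unadjusted p under 0.05, 704 of them higher and 444 lower. The clone called, IMAGE:333633, has no gene symbol and a difference of 4.27 ± 0.23 (SE; limma adjusted p = 0.000218). Its spot was marked as not found on all 8 arrays, with a MOSE signal of 5 to 23 units over background at p25 and 2 to 47 units at p23, so its ratio rests on next to no fluorescence. The other clones past 0.05 belong to Gstm1 and Tsc22d1.

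The arrays of p23 did not resemble each other as closely as those of p25. Correlation of the log ratios over clones, given as a description, ran from 0.51 to 0.66 among p25 arrays and from 0.26 to 0.53 among p23 arrays. The p23 array d2 differed from the rest of p23: it correlated at 0.59 to 0.70 with the p25 arrays and at 0.43 to 0.53 with the other p23 arrays. It was not the array least like the series. With the mean profile of the other 7 passages d2 correlated at 0.79, and d1, r1 and r2 of p23 at 0.53, 0.53 and 0.47. The p25 arrays correlated at 0.69 to 0.77 with that profile. Values given without d2 thus rest, for p23, on the arrays that agree less with the series. Before scaling, the median absolute deviation over clones was 0.51, 0.36, 0.29 and 0.35 on the p25 arrays d1, d2, r1 and r2. On the p23 arrays it was 0.68, 0.37, 0.70 and 0.73, in the same order. The p23 arrays d1, r1 and r2 were thus more spread out than any p25 array, and d2 was not. Without d2 the 8-array test still called 1 clone, again higher. It was IMAGE:333633, the spot with next to no fluorescence, so the count does not show how d2 bears on other clones.

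**Figure D1:**
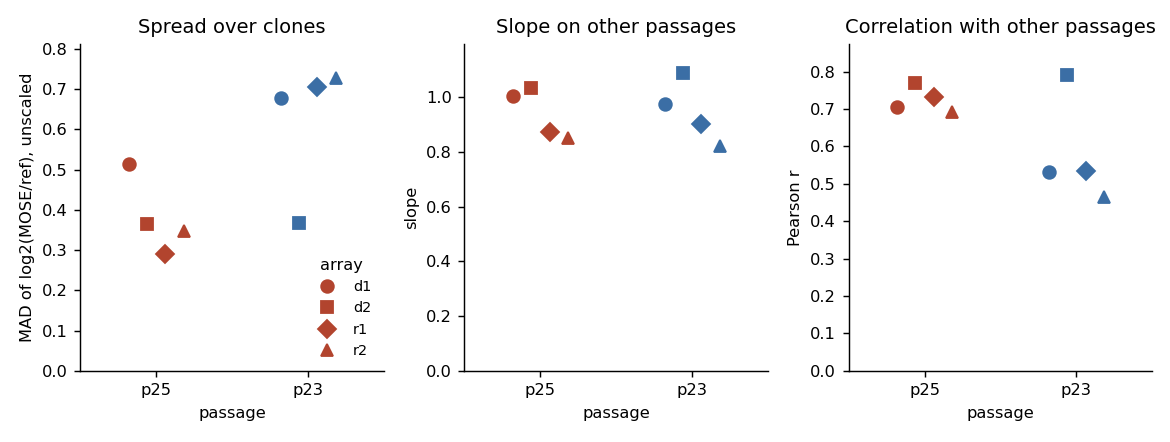
Spread of unscaled log2 ratios (left), slope of each array on the mean profile of the other 7 passages (middle) and its Pearson correlation with that profile (right), for the 4 arrays of p25 (red) and of p23 (blue); marker shape gives the array. Slopes of p25 (0.85 to 1.03) and p23 (0.82 to 1.09) overlapped, while the spread of p23 arrays other than d2 lay above that of p25.

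The scaling to equal spread bears on this pair. The slope of each array on the mean profile of the other 7 passages, which tells how strongly the persistent MOSE pattern shows on it, was 0.85 to 1.03 at p25 and 0.82 to 1.09 at p23, so these ranges overlapped before scaling. After scaling, the p25 minus p23 difference had a slope of 0.33 on the same profile, against -0.0074 without scaling. Transcripts that are always far below the reference (globins, skeletal muscle genes, albumin) therefore came out lower at p25 and those always far above it came out higher. Alb shows the size of the effect, with a difference of -2.58 after scaling and -0.02 without. Values below are scaled where nothing else is said, with the unscaled difference beside them where a result turns on it, and a gene is counted as apart on both scales only when its p25 arrays lay entirely on one side of its p23 arrays with both. Of 7389 genes (means of their clones), 80 were higher by that criterion (1.08%) and 48 lower (0.65%). Each list count on both scales below is to be read against these shares. By unscaled values alone 167 were higher (2.26%) and 129 lower (1.75%). Without p23 array d2 the counts on both scales were 181 (2.45%) and 178 (2.41%). Non-overlap is easier to reach with an array fewer, so these higher counts are no sign of more differences. Among all genes 3729 had a difference above 0 with scaling and 3721 without.

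A single fit of all 35 arrays, which takes the spread from every passage, called 17 clones (0.111%; 16 higher and 1 lower). The same fit without scaling, chosen after seeing the data, called 173 clones (1.13%; 113 higher and 60 lower), and 12 clones were called by both. These were Krt18, Cdr2l, Ptprf, Psip1, Serping1, 2 clones of Tsc22d1 and 4 clones without a symbol, all higher, and Dph5, lower. The median SD of a clone between arrays of p23, after the dye term, was 0.26 scaled and 0.41 unscaled. In the 7 passages other than p23 and p25 it was 0.15 to 0.23 scaled and 0.13 to 0.25 unscaled. The spread pooled over all passages therefore understates that of p23, most of all without scaling, and the p values of these fits are too small for this pair. In what follows, rose and fell are used for clones that passed 0.01 in both fits of 35 arrays, with that limit.

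The keratins were set out as a list after their values were seen, and most lay higher at p25. Simple-epithelial keratins pair as type II (Krt7, Krt8) with type I (Krt18, Krt19) into the filaments that brace epithelial cells. Of the 4 on the array, 3 were higher on both scales, against 1.08% of all genes. The median difference of the 4 was 1.05 scaled and 1.003 unscaled, while the median over all genes was 0.00. Without p23 array d2 the medians were 1.23 and 1.02, and the same count of 3 was reached. The median of the 4 genes on each array was 1.28, 1.39, 1.60 and 1.32 at p25, against 0.20, 0.49, 0.14 and 0.13 at p23.

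Krt18 was read by 2 clones. The first stood at 0.95, 0.78, 0.99 and 0.78 on p25 arrays d1, d2, r1 and r2, and at -0.07, 0.33, -0.25 and -0.12 on p23 arrays. All p25 values lay above all p23 values, and the clone rose by 0.90 ± 0.16 (SE; limma adjusted p = 0.196 on 8 arrays, 0.00196 on 35 arrays and 0.000126 on 35 unscaled arrays). The second clone differed by 0.86, also without overlap.

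Krt8, the partner of Krt18, was read by 3 clones that differed by 0.87, 0.80 and 0.61 with scaling. Unscaled, the same clones differed by 1.37, 1.13 and 0.83. The first of them stood at 0.44, 0.27, -0.01 and 0.01 at p25 and at -0.23, -0.56, -0.68 and -1.30 at p23. None of the 3 clones overlapped between passages on either scale, and with limma on 35 scaled arrays the first had an adjusted p = 0.0201.

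Krt7 averaged 1.84 ± 0.31 at p25 and 0.40 ± 0.15 at p23 (SD, n = 4 each). Its arrays read 1.52, 1.86, 2.24 and 1.71 at p25, against 0.42, 0.59, 0.24 and 0.34 at p23. The gap between the passages was several times the spread within either, yet the adjusted p with limma was 0.112 on 8 arrays (0.0231 without p23 array d2), 0.302 on 35 arrays and 0.133 on 35 unscaled arrays. Unscaled, Krt7 differed by 1.16, again without overlap. Krt19 overlapped: 2.46, 3.31, 3.75 and 2.95 at p25, and 1.30, 3.40, 1.45 and 1.43 at p23, where the high value is that of d2. Its difference of 1.23 dropped to 0.27 without scaling. In these bulk samples, fewer keratin-bearing cells and less keratin RNA per cell cannot be told apart.

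Of the 19 markers of ovarian surface and mesothelium on the array, those 3 keratins were the only ones whose passages did not overlap on both scales, and the list median was 0.70 scaled but 0.20 unscaled. Wt1, the transcription factor that marks mesothelium, stood at 2.46, 3.86, 4.32 and 2.60 at p25 and 1.62, 3.15, 1.84 and 1.11 at p23, and differed by 0.31 without scaling. Msln, the mesothelial surface protein, differed by 1.06 scaled and 0.27 unscaled. Cdh3 (P-cadherin) averaged 2.59 ± 0.20 at p25 and 1.15 ± 0.94 at p23 (SD, n = 4 each), with the p23 array d2 at 2.55 within the p25 range. It differed by 1.44 scaled and 0.995 unscaled, with overlap on both (limma adjusted p = 0.0431 on 35 arrays and 0.000977 on 35 unscaled arrays). Both Wt1 and Krt19 were well above the newborn at either passage, so defining markers of the labeled cell type were present. Cdh1, the E-cadherin of epithelia, was below the newborn, at -0.60 at p25 and -0.55 at p23.

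Markers of most other cells gave values that moved with the scaling. Of 10 erythroid markers 1 was above 0 in the scaled difference and 8 in the unscaled one, with list medians of -0.54 and 0.12. On single arrays their scaled median ranged from -2.30 to -1.31 at p25 and from -2.78 to -0.56 at p23. The 5 skeletal muscle markers had a median difference of -1.07 scaled and 0.18 unscaled. The 7 leukocyte markers differed by -0.21 and 0.05 on the same scales, and lay between -1.27 and -0.49 on p25 arrays and between -1.32 and -0.49 on p23 arrays. The 7 fibroblast and stromal markers had medians of -0.11 scaled and 0.32 unscaled, with 6 above 0 unscaled, and the 4 endothelial markers medians of -0.13 and 0.44, with 4 above 0 unscaled. The 9 granulosa, theca and luteal markers stayed near level, at 0.0089 and 0.043. The medians of the erythroid, muscle, leukocyte and endothelial lists were below the newborn on every array of both passages. Their part in the results was not tested.

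**Figure D2:**
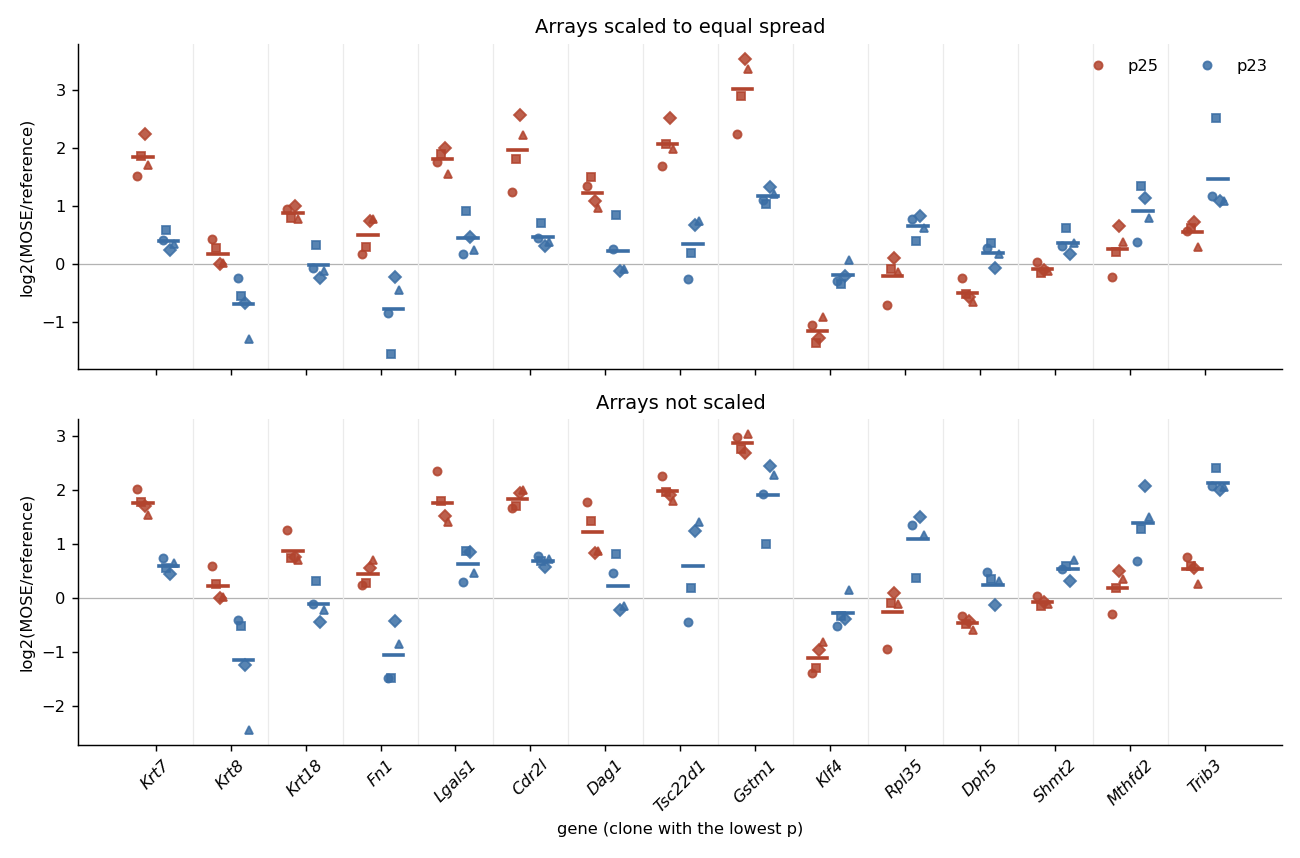
log2(MOSE/reference) of 15 genes on each of the 4 p25 arrays (red, left of each pair) and the 4 p23 arrays (blue), with scaling (top) and without (bottom). The clone with the lowest p stands for its gene, bars are means and marker shapes give the arrays d1 (circle), d2 (square), r1 (diamond) and r2 (triangle). All p25 values of Krt7, Krt18, Fn1, Cdr2l and Dag1 lay above the p23 values, and those of Klf4, Dph5 and Trib3 lay below, in both panels.

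Adhesion and cell surface genes were among the others first by p on the higher side. Fn1 encodes fibronectin, the matrix glycoprotein that integrins grip. Its arrays read 0.18, 0.29, 0.74 and 0.78 at p25, against -0.85, -1.56, -0.23 and -0.45 at p23. The passages did not overlap, with a difference of 1.27 ± 0.19 scaled and 1.50 unscaled (SE; limma adjusted p = 0.181 on 8 arrays and 0.0272 without p23 array d2). Dag1, whose product dystroglycan ties the cytoskeleton to laminin, was at 1.34, 1.49, 1.09 and 0.97 at p25, and at 0.26, 0.84, -0.13 and -0.08 at p23. It differed by 0.997 scaled and 1.004 unscaled.

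Ptprf, a receptor tyrosine phosphatase of cell contacts, rose by 1.05 ± 0.18 (SE; limma adjusted p = 0.00907 on 35 arrays) on 1 of its 2 clones. That clone read 0.59, 0.41, 1.34 and 0.87 at p25 and -0.42, -0.27, 0.05 and -0.37 at p23. The other clone overlapped, with a difference of 0.25 scaled and -0.13 unscaled, so the clones of this gene disagree. Cldn3, a tight junction claudin picked out after its values were seen, averaged 1.77 ± 0.54 at p25 and 0.40 ± 0.20 at p23 (SD, n = 4 each), without overlap, and differed by 1.02 unscaled. Collagens and matrix genes did not follow Fn1 as a group: of 49 measured it was the only member higher on both scales, and the list median was -0.10 scaled and 0.22 unscaled.

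Lgals1, the galactoside-binding lectin galectin-1, had 3 clones that differed by 1.35, 1.03 and 1.19. The first stood at 1.76, 1.89, 2.00 and 1.55 at p25 and 0.17, 0.91, 0.47 and 0.24 at p23. It alone kept the passages apart without scaling, where the 3 clones differed by 1.15, 0.92 and 0.60.

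The cytoskeleton was represented by a few genes. Myl12a, a regulatory light chain of non-muscle myosin, differed by 0.94 scaled and 0.74 unscaled, and overlapped without scaling. Of 54 actomyosin and focal adhesion genes, 1 was higher on both scales, the tropomyosin Tpm3 (mean of 3 clones 0.38 scaled and 0.48 unscaled), and 0 were lower. The list had 33 members above 0 with scaling and 41 without, and medians of 0.04 and 0.16. Tpm1, singled out after its values were seen, had 1 clone at -0.27, -0.01, -0.18 and 0.04 at p25 and -1.27, -1.34, -0.53 and -0.45 at p23. Its 3 clones differed by 0.79, 0.62 and -0.11 scaled but by 1.22, 1.34 and 0.73 unscaled, so the sign of the last turns with the scaling (limma adjusted p = 0.928 on 35 arrays and 0.0369 on 35 unscaled arrays).

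Tsc22d1 was repeated over 5 clones. It encodes a leucine zipper protein first described as a transcript stimulated by TGF-beta. All of its clones had p25 arrays above p23 arrays with scaling, with differences between 1.11 and 1.72, and 4 of the 5 without scaling as well. The clone with the lowest p read 1.69, 2.07, 2.51 and 1.98 at p25, against -0.26, 0.20, 0.68 and 0.75 at p23 (difference 1.72 ± 0.19, SE; limma adjusted p = 0.0449 on 8 arrays). Another 2 of the clones rose in both fits of 35 arrays, by 1.27 and 1.41. Of the 23 members of the TGF-beta and BMP list it was the only one apart on both scales, and the list median was -0.03.

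Gstm1, a glutathione transferase that conjugates electrophiles, differed by 1.84 ± 0.20 (SE; limma adjusted p = 0.0449 on 8 arrays). Its first clone stood at 2.25, 2.89, 3.54 and 3.36 at p25, and at 1.10, 1.04, 1.33 and 1.21 at p23. Without scaling the difference was 0.95, and the passages still did not overlap. Another clone differed by 1.80 with overlap and the last by 0.16. Members of the Gstm family are alike in sequence, so a cDNA spot may collect signal from several of them, and the clones need not report the same transcript. Within 33 antioxidant, glutathione and ferritin genes, only the peroxidase Prdx1 was higher on both scales (0.52 and 0.45).

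Cdr2l, a relative of the cerebellar antigen gene Cdr2, rose by 1.49 ± 0.25 (SE; limma adjusted p = 0.00196 on 35 arrays). Its values were 1.25, 1.80, 2.56 and 2.22 at p25 and 0.45, 0.71, 0.31 and 0.38 at p23, and it differed by 1.14 unscaled. Psip1, a chromatin-tethering coactivator, rose by 0.98 on 1 clone (0.84 unscaled), while its other 3 clones differed by -0.09, -0.09 and -0.03 (-0.06, -0.24 and -0.04 unscaled), so this gene has no common direction. Tom1l1, an endosomal sorting adaptor, differed by 0.93 scaled and 1.15 unscaled, without overlap on either. Serping1, the C1 inhibitor of complement, rose by 0.61, although 1 p25 array (-0.11) fell within the p23 range of -0.51 to -0.07.

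Nuclear bodies made up a small list. Paraspeckles and speckles are RNA-protein bodies that hold processing factors and retained transcripts. Of 10 members, 3 were higher on both scales (Malat1, Nono and Hnrnpk) and 0 lower, with list medians of 0.21 and 0.19. Over all genes 1.08% were higher and 0.65% lower. Nono was apart only as the mean of its clones. These differed by 0.39 and 0.30 scaled and by 0.78 and 0.41 unscaled, and each by itself overlapped on both scales. Malat1, the long noncoding RNA of speckles, had 3 clones that differed by 0.74, 0.56 and 0.47 scaled and by 0.99, 0.69 and 0.48 unscaled. The first read 0.27, 0.73, -0.01 and 0.21 at p25, against -0.76, -0.51, -0.05 and -0.43 at p23. Of the 3 clones only the last overlapped. Neat1, the RNA core of paraspeckles, read -0.71, -1.55, -0.02 and 0.03 at p25 and -0.28, -1.58, -0.66 and 0.26 at p23, so its passages overlapped fully. Otud7b, a deubiquitinase of the NF-kB pathway, differed by 0.58 ± 0.16 (SE; limma adjusted p = 0.455 on 8 arrays) without overlap, and by 0.55 unscaled with overlap.

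On the lower side, Klf4 was first by p. It encodes a zinc finger factor of epithelial differentiation and growth arrest. Its first clone stood at -1.05, -1.36, -1.28 and -0.91 at p25, and at -0.30, -0.35, -0.21 and 0.07 at p23. The means were -1.15 ± 0.21 at p25 and -0.20 ± 0.19 at p23 (SD, n = 4 each; difference -0.96, limma adjusted p = 0.191 on 8 arrays), and no values overlapped. Another clone differed by -0.66 scaled, and overlapped when unscaled. Of 23 immediate early and Myc genes it was the only one apart on both scales, and Myc itself overlapped.

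Dph5, an enzyme of diphthamide synthesis on elongation factor 2, was the 1 clone that fell in both fits of 35 arrays. It read -0.25, -0.52, -0.56 and -0.66 at p25, against 0.27, 0.36, -0.08 and 0.17 at p23 (difference -0.68 ± 0.14, SE, and -0.71 unscaled; limma adjusted p = 0.00727 on 35 arrays). Its other clone differed by 0.02 scaled and -0.15 unscaled, with overlap, so the clones disagree here too.

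Ribosomal protein transcripts had mostly negative differences. Of 81 genes for cytosolic ribosomal proteins, 3 were lower on both scales (Rpl35, Rps15a and Rpl15) and 0 higher. Over all genes the shares were 0.65% and 1.08%. As a list, 55 of 81 lay below 0 with scaling and 67 without, with medians of -0.09 and -0.25 (-0.02 and -0.20 without p23 array d2). Rpl35 had 1 clone at -0.71, -0.09, 0.11 and -0.14 at p25 and 0.77, 0.39, 0.82 and 0.62 at p23, and its other 2 clones differed by only -0.16 and -0.07. The median of the list per array was 0.05, 0.03, 0.20 and 0.16 at p25, against 0.00, 0.30, 0.37 and 0.31 at p23, where d1 was as low as p25. Ribosomal protein genes have many processed copies in the genome, and the clones cannot separate them. Mitochondrial ribosomal proteins had a median of -0.06.

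Slc2a1, the glucose transporter GLUT1, was apart on every array: -0.21, -0.23, -0.34 and -0.20 at p25 and 0.37, 0.40, 0.20 and 0.21 at p23. The difference was -0.54 ± 0.13 (SE; limma adjusted p = 0.393 on 8 arrays) and -0.69 unscaled. It belongs to the 18 hypoxia response genes, of which 3 were lower on both scales and 0 higher (over all genes 0.65% and 1.08%). The others were P4ha2, a collagen prolyl hydroxylase (-0.54 and -0.72), and Pfkfb3, which drives glycolysis through fructose bisphosphate (-0.32 and -0.45). The list as a whole had a median of -0.03 scaled and -0.19 unscaled. Of its 18 members 8 were above 0 with scaling and 5 without, and 1 was entirely higher at p25 with scaling only. Among other genes first by p on the lower side, Ndufs8 of respiratory complex I (-0.56 scaled and -0.42 unscaled) and Shkbp1 (-0.65 and -0.94) kept the passages apart on both scales. Nampt of NAD salvage (-0.75), the imprinted adaptor Grb10 (-1.16) and the fibrillar collagen Col5a2 (-1.25) overlapped without scaling.

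Genes of amino acid supply formed a further group, found by reading the values, so its counts are a description and carry no test. Cells short of amino acids, or stressed in the endoplasmic reticulum, translate the factor ATF4, which pairs with C/EBP proteins on a composite element and turns on transfer RNA synthetases, serine and folate enzymes, transporters and the feedback pseudokinase Trib3. Of 19 cytosolic aminoacyl-tRNA synthetases, 17 had differences below 0 with scaling and 17 without, the 2 remaining on both being Rars and Qars. The median of the list was -0.24 scaled and -0.32 unscaled, and 0 of its genes were apart on both scales, while 3 were apart and lower without scaling, where 1.75% of all genes were. On unscaled arrays the list median was 0.25, 0.15, 0.24 and 0.13 at p25, against 0.52, 0.65, 0.44 and 0.35 at p23. Those ranges did not overlap. With scaling they did, at 0.15 to 0.31 for p25 and 0.18 to 0.68 for p23. Without p23 array d2 the median difference was -0.09 scaled and -0.21 unscaled. On both scales 1 of the 19 genes was then higher and 0 lower, where 2.45% and 2.41% of all genes were.

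Trib3 was the furthest apart of these genes. On unscaled arrays it stood at 0.77, 0.59, 0.55 and 0.26 at p25, and at 2.07, 2.41, 1.99 and 2.05 at p23. With scaling the values were 0.58, 0.62, 0.72 and 0.28 at p25 and 1.18, 2.52, 1.09 and 1.09 at p23, again without overlap. The difference was -0.92 ± 0.29 scaled and -1.59 unscaled (SE; limma adjusted p = 0.568 on 8 arrays, 0.0239 on 35 arrays and 3.26e-08 on 35 unscaled arrays). The test of 35 arrays therefore called it at 0.01 only without scaling, where the pooled spread understates that of p23 most.

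Mthfd2, the mitochondrial folate dehydrogenase, read -0.30, 0.19, 0.49 and 0.35 at p25 unscaled, against 0.68, 1.28, 2.07 and 1.50 at p23. It overlapped when scaled (-0.66). Shmt2, the mitochondrial serine hydroxymethyltransferase that feeds it, was apart on both scales, at 0.03, -0.16, -0.11 and -0.12 at p25 and 0.30, 0.61, 0.17 and 0.37 at p23, with a difference of -0.45 scaled and -0.61 unscaled. Of 11 serine and one-carbon enzymes 9 lay below 0 with scaling and 9 without, but the serine synthesis enzyme Psat1 did not (0.01 and 0.05). Among the synthetases, Gars, Yars, 1 of 3 Eprs clones and 1 of 3 Sars clones were apart without scaling (-1.30, -0.71, -0.87 and -0.92). Atf4 itself differed by 0.27 scaled and -0.41 unscaled and Asns, asparagine synthetase, by -0.01 and -0.40, both with overlap. The sign for Atf4 thus turns with the scaling, and the output of this factor is known to be regulated mainly by translation.

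The element itself can be read in the promoters. The letters TGATGNAA were searched on both strands of RefSeq promoters (GRCm38.p6), from 250 bases before the gene start to 50 after it, and 1304 of 32851 promoters held them (3.97%). Of the 13 synthetase genes with a promoter sequence 5 did (38.5%), of 8 genes of the amino acid stress response 5 did (62.5%), and of 10 serine and one-carbon genes 0 did. Every promoter of the table counts once in the first share, and a gene counts once in the others. The lists were assembled knowing this pathway, and a match is a description of letters. The windows below are shown for the genes just described or their closest relatives in the lists, with the matched letters in capitals.
Trib3 (chr2:152344028-152344057, - strand): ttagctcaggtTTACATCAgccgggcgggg
Asns (chr6:7693214-7693243, - strand): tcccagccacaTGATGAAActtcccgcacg
Gars (chr6:55037960-55037989, + strand): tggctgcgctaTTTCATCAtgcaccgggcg
Yars (chr4:129189895-129189924, + strand): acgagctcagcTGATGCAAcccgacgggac
Tars (chr15:11399655-11399684, - strand): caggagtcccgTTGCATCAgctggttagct
Iars (chr13:49682126-49682155, + strand): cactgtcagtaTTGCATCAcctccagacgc

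Asns and Yars carry the element as searched, and the other 4 carry it on the opposite strand, where it reads as TTNCATCA. Their unscaled differences were -1.59 for Trib3, -0.40 for Asns, -1.30 for Gars, -0.71 for Yars, -0.90 for Tars and -0.57 for Iars. With scaling the same genes differed by -0.92, -0.01, -0.61, -0.48, -0.35 and -0.09 in that order, and only Trib3 kept the passages apart. Aars, Atf3, Nupr1 and Vldlr hold the letters as well and differed by -0.49, -0.43, 0.02 and -0.10 unscaled, and by -0.05, -0.48, 0.35 and -0.22 scaled (means of their clones), so holders of the letters were not alike in value.

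**Figure D3:**
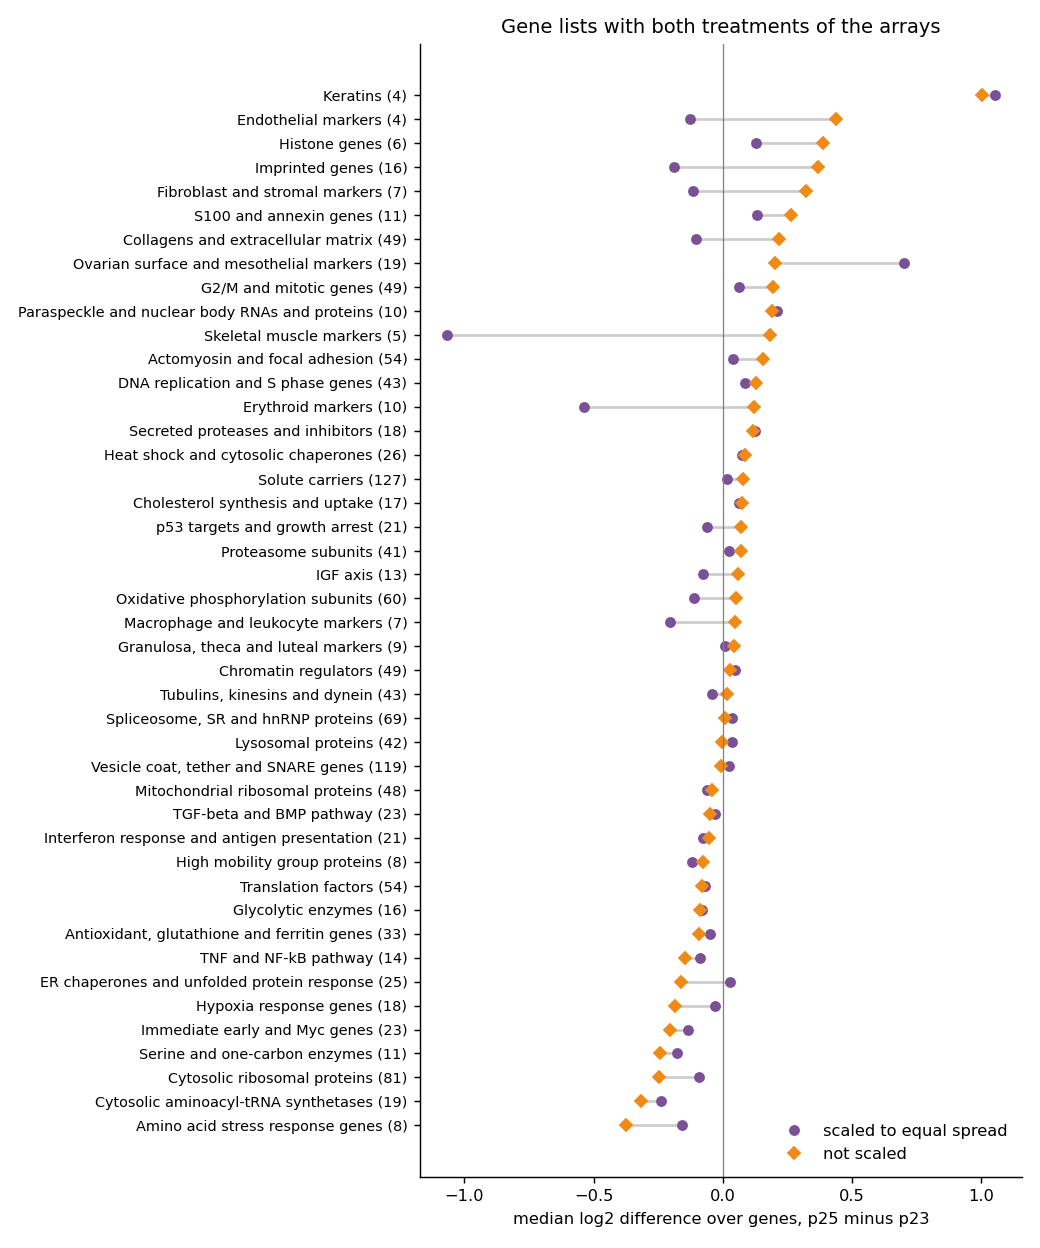
Median log2 difference (p25 minus p23) over the genes of each list, with the number of genes in parentheses, with arrays scaled to equal spread (purple) and not scaled (orange). The keratins (1.05 and 1.003) stand apart on both, whereas skeletal muscle and erythroid markers change sign with scaling.

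Proliferation genes were nearly level after scaling. Of 49 G2/M and mitotic genes, 2 were higher on both scales and 0 lower (over all genes 1.08% and 0.65%). The list median was 0.06 scaled and 0.19 unscaled. It was 0.24 with arrays scaled within each passage and 0.26 in the authors' deposited log2 values. Aurkb, the kinase of the chromosome passenger complex, read 0.19, -0.29, -0.66 and -0.39 at p25, against -0.70, -0.997, -1.05 and -0.81 at p23. It differed by 0.60 scaled and 1.19 unscaled (limma adjusted p = 0.0482 on 35 arrays). Smc2 of condensin differed by 0.22 scaled and 0.49 unscaled as the mean of its 2 clones, and was apart on both scales only as that mean. Its first clone differed by 0.43 scaled and 0.82 unscaled, and overlapped without scaling. The other differed by 0.01 and 0.16 and overlapped on both, so the clones disagree. Top2a, the decatenating topoisomerase, was apart without scaling only, by 1.25 on its first clone. Without p23 array d2 the list median was -0.02 scaled and 0.20 unscaled. DNA replication genes numbered 43, with 0 apart on both scales and medians of 0.08 and 0.13. Their median was 0.17 with arrays scaled within each passage and 0.20 in the authors' deposited values.

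The oncogene-related genes that the study picked at p23 were chosen on these samples and are not independent evidence of a direction. Of the 12, 0 were apart on both scales, and their median was 0.06 scaled and 0.37 unscaled. Mycbp had 1 clone at -0.28, -0.13, 0.15 and 0.20 at p25 and at -0.74, -2.44, -0.42 and -0.44 at p23, while its other clone differed by 0.05. Rala differed by 0.41 scaled with overlap and 0.68 unscaled without. In the other direction, 1 clone of Fgfr1op2 was lower without overlap on both scales (-0.38 and -0.57), while its other clone overlapped (-0.17 and -0.39). Ndrg1 differed by -0.36 and -0.40, with overlap. Of the 12 genes 7 were above 0 and 5 below with scaling, and 8 above and 4 below without. Among the genes the study names as lasting to late passages, 12 were matched on the array. By the means of their clones Malat1 alone was higher on both scales, and the median was 0.17. The list mixes genes the study gives as lastingly lower with Hmga1, Hs6st2 and Mmp2, given as lastingly higher, so its median has no single expected direction. A clone of Jade1 (0.47 and 0.47) and one of Sfpq (0.35 and 0.48) were also higher on both scales, while the other clones of these genes overlapped.

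Seen along all 9 passages (unscaled means, a description), p23 lay above both neighbors for synthetases, and the keratin median was lowest there. The keratin median was 0.77 (p18), 0.33 (p23), 1.36 (p25) and 1.57 (p28). Krt8 and Krt18 were already low at p18. The 3 Krt8 clones went from 1.27, 1.25 and 0.69 (p14) to -0.50, -0.61 and -0.39 (p18), and to -1.16, -0.86 and -0.65 (p23). The 2 Krt18 clones stood at 0.08 and 0.19 (p18), against -0.12 and 0.24 (p23). The synthetase median was 0.12 (p18), 0.61 (p23), 0.13 (p25) and 0.47 (p28). Keratins at p25 were thus back within the range of p2 to p14 (0.72 to 1.77), and synthetases at p25 were back near p18 but not at p28. The 8 amino acid stress response genes did not return to p18. Their median was -0.16 (p18), 0.80 (p23), 0.46 (p25) and 0.83 (p28). Mitotic genes had medians of -0.26 (p18), -0.42 (p23), -0.23 (p25) and 0.39 (p28). Over all clones the unscaled step of p25 from p23 had an SD of 0.43, within the range of 0.35 to 0.52 of the other steps between neighboring passages.

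**Figure D4:**
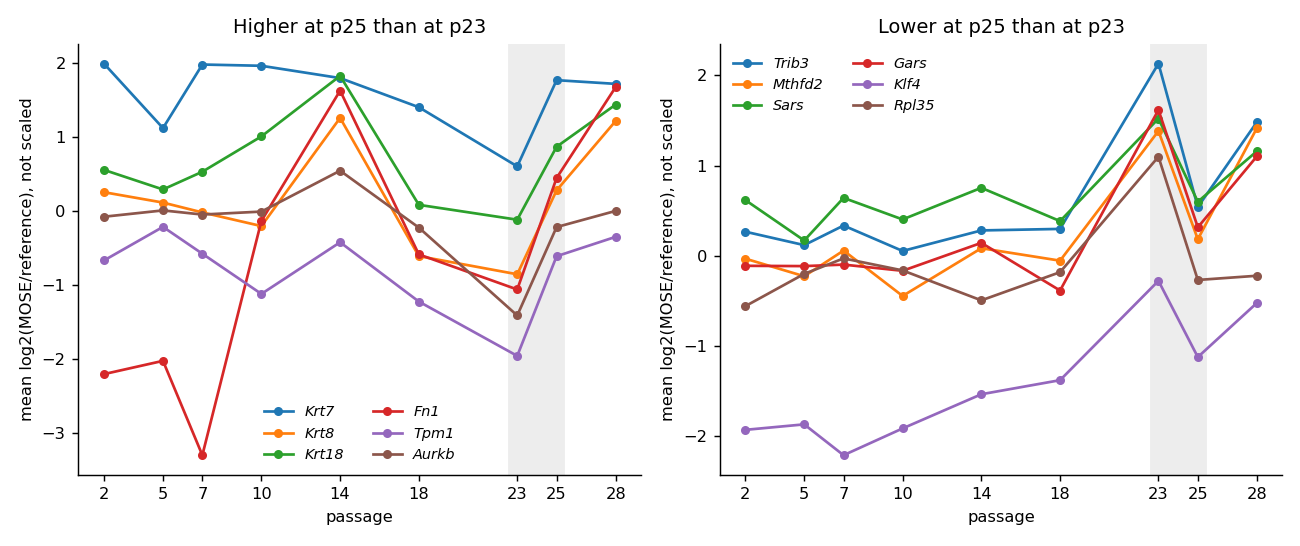
Mean unscaled log2(MOSE/reference) by passage for 6 genes higher at p25 than at p23 (left) and 6 lower (right), for the clone with the lowest p of each gene; the grey band marks the pair compared and no error is drawn. On the left Krt7, Krt8, Krt18 and Aurkb were lowest at p23, while Fn1 (-1.06 at p23) was lower still at p2, p5 and p7 (-2.20, -2.02 and -3.30). On the right Trib3 and Gars had a peak at p23.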

How the data were processed

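Scanner output was used for all 35 arrays, in which the authors deposited fluorescence intensity and local background of each spot in both channels, with no transformation. In R 4.3.3 with limma 3.58.1, background was subtracted (signals under 0.5 set to 0.5), loess was fitted in 32 print-tip blocks, arrays were scaled to equal spread over the series, reverse arrays were turned and spots of a clone averaged. The test was limma with passage and dye terms on 8 arrays, with Benjamini-Hochberg adjustment over 15254 clones. Symbols cover 10098 clones and 7389 genes, and clones of 1 gene were averaged for the lists. The authors' deposited log2 table (15023 probes, 14747 matched to clones by order and correlation) was an alternative; 0 array columns of it were left out.

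The comparison, lists and rule for named genes (12 first by p in each direction, names given by the study) were chosen with earlier results of these data known, and 4 lists and the further genes noted were chosen after their values were seen. Figures were drawn with Python 3.11.15 and matplotlib 3.10.9. On simulated data for this comparison with 15254 clones, 0 of 67 clones changed by 0.5, 9 of 67 changed by 1 and 59 of 66 changed by 2 were found, with 0 false calls. The authors' build is not given in the sources used here; promoter coordinates are RefSeq's. A result on 1 named gene is not reported here.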

Additional observations from a re-analysis of the deposited data

Results flagged for a closer look

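Over 126 groups of 4 array values, 7 had a single array far from the other 3, a gap that chance gives in about 1 in 20 groups, so that number is near what chance gives. The p23 array d2 was the distant one for H2ac23 (-2.66), Spp1 (-5.18) and Mycbp (-2.44), and for the spread of its log ratios before scaling (median absolute deviation 0.367). The p25 array d2 was distant for Col5a2 (-2.36) and Hmga1 (-0.728), and the p23 array r1 for Rala (-0.315).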

How the results depend on the processing

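The count of called clones was 0 (0 higher) with normexp, global loess, no scaling, no dye term, dim clones left out (14992 kept), spots not found at weight 0, the deposited table, and, chosen after seeing the data, slope scaling and no scaling with array weights. It was 17 with all 35 arrays (16 higher, 1 lower), 173 with all 35 arrays and no scaling (113 higher, 60 lower) and 3 at an adjusted p under 0.05 (3 higher). Leaving out 1 array gave 1 to 3 calls, 1 to 3 higher and 0 to 1 lower, with 3 without p25 d1, and 1 lower without p25 r1. With the replicate block it was 1; same-numbered arrays deviated together weakly (0.19, 0.22, 0.12 and 0.099 for d1, d2, r1 and r2) and share only a number.

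Of 56 named genes, 42 kept their direction under every alternative and 14 did not. Neat1 turned to -0.031 (normexp), -0.015 (no background subtraction) and -0.27 (global loess), Hras to -0.061 (normexp) and -0.13 (global loess), and Tnc to -0.0027 (no background subtraction) and -0.020 (global loess). Without scaling, on 8 or 35 arrays, H2ac23 turned to 0.70, Mmp2 to -0.037, Spp1 to 0.90, Akt1 to 0.15 and Hs6st2 to -0.018. Scaling within passages gave 0.81 for H2ac23, 1.20 for Spp1 and 0.17 for Akt1, and the authors' table gave 0.78, 1.21 and 0.20 for the same genes. Slope scaling gave 0.72 for H2ac23, 0.89 for Spp1, 0.17 for Akt1, -0.027 for Mmp2, -0.062 for Hs6st2 and 0.050 for Alb. No scaling with array weights gave 0.63 for H2ac23, 1.10 for Spp1, 0.047 for Akt1, -0.019 for Hs6st2 and 0.014 for Fth1. With 1 array left out, differences ranged from -0.22 to 0.30 for Neat1, -0.069 to 0.19 for Hras, -0.077 to 0.28 for Tet3, -0.32 to 0.26 for Tnc, -0.21 to 0.30 for Hmga1, -0.51 to 0.014 for H2ac23, -0.030 to 0.47 for Lyn, -0.53 to 0.11 for Myc and -0.29 to 0.042 for Fth1. The cause was not tested. Of 46 list medians, 14 moved by more than the spread between arrays without scaling, 14 with slope scaling, 21 with scaling within passages and 21 with the authors' table, whose mean median absolute deviation was 0.364 at p25 and 0.587 at p23.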
